A study of Mus musculus with 5 samples.

Results

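Nuclei of the hippocampus of 5xFAD mice with a neuron-specific knockout of monoacylglycerol lipase (MAGL) were compared with nuclei of 5xFAD mice that were not labelled with a knockout. Both are single libraries in which RNA and open chromatin were read from the same nuclei. All nuclei with at least 500 detected genes were taken, 4049 from the library labelled neuron-specific MAGL-KO (nKO below) and 5176 from the 5xFAD library. These 9225 nuclei are 2 of the 5 libraries and 9225 of 28099 such nuclei of the series. The 5xFAD line carries transgenes with familial Alzheimer's disease mutations, a human APP among them, driven by the mouse Thy1 promoter, and both libraries share this background. All 5 libraries carry the same batch label. The other 3 are a wild type, a 5xFAD astrocyte-specific knockout (aKO) and a 5xFAD global knockout (tKO), and they are used here for levels only. The labels used here do not give the Cre line or promoter behind the neuronal knockout, the deleted exons, the age of the mice or how many animals were pooled. With 1 library a side there is no test, and every interval below covers counting error only. Whether a difference belongs to the knockout or to the animals and handling of 1 library cannot be told apart.

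MAGL, encoded by Mgll, is a serine hydrolase that splits the endocannabinoid 2-arachidonoylglycerol (2-AG) into arachidonic acid and glycerol. Neurons make 2-AG at the postsynaptic side with diacylglycerol lipases, and it acts backwards on the presynaptic cannabinoid receptor CB1 to lower transmitter release. In the brain the arachidonic acid freed by MAGL is also a source of prostaglandins, which ties the enzyme to inflammatory signalling. Neurons and astrocytes both hold MAGL.

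The results below turn on a few genes, and the 250 bases before their RefSeq start sites show what is read at those places. They are given 5′ to 3′ on the gene's own strand, from RefSeq on GRCm38.p6. Mgll is the targeted gene (chr6:88724162-88724411, plus strand). Spock1 RNA was far lower in nKO than in the other 4 libraries (chr13:57908333-57908582, minus strand). Npy encodes a neuropeptide, is among the leading genes of a cluster of inhibitory nuclei, and was higher in nKO granule nuclei (chr6:49822460-49822709, plus strand). Slc7a11 had more UMIs in all classes of nKO neurons (chr3:50443614-50443863, minus strand). Npsr1 was at 0 in oligodendrocyte nuclei of nKO, aKO and tKO, and not in those of 5xFAD or wild type (chr9:24097768-24098017, plus strand). Capitals mark matches to the motifs described after the sequences.
Mgll: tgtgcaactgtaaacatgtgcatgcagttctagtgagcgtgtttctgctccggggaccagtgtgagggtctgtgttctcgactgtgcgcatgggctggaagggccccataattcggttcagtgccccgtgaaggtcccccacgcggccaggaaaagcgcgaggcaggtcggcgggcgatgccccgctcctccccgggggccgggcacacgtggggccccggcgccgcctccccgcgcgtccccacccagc
Spock1: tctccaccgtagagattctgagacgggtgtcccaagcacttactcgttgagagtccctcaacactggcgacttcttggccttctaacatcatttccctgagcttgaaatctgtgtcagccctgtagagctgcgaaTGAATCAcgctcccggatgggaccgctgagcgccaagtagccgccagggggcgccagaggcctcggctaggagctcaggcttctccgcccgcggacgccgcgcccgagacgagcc
Npy: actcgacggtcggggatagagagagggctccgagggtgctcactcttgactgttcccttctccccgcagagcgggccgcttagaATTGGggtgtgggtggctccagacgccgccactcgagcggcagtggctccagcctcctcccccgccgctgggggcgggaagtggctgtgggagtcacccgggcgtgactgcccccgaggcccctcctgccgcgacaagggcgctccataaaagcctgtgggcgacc
Slc7a11: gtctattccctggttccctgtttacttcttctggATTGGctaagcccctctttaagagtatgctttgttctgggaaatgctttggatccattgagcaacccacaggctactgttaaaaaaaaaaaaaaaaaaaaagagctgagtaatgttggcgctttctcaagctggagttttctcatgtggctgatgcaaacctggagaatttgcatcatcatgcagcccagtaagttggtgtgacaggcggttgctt
Npsr1: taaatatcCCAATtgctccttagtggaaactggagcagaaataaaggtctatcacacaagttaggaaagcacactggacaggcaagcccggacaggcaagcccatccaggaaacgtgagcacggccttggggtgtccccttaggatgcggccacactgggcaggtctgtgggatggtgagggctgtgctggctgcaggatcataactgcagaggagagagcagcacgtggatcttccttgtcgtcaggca
The motifs searched on both strands were the full CRE TGACGTCA, TGANTCA, the TGCGTCA element known from the Penk promoter, and the CCAAT box. TGANTCA is a loose form of the AP-1 site, with any base at its centre. No motif holds another within its letters. Of 32851 such windows in the table, 1.55% held TGACGTCA, 6.75% held TGANTCA, 1.75% held TGCGTCA and 33.8% held CCAAT. The Spock1 window held 1 TGANTCA match, with A at its centre. The Npy, Slc7a11 and Npsr1 windows held 1 CCAAT match each (on the reverse strand for Npy and Slc7a11). The Mgll window held none of the 4. A match is a description of letters and not of a bound site.

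After removal of likely doublets, 3917 nKO and 4962 5xFAD nuclei remained, with medians of 17063 and 16756 UMIs (unique RNA molecules) and 14654 and 11655 cut sites in peaks. Together they held 95923033 and 111844285 UMIs. Only 31 cell barcodes occurred in both libraries. The libraries differed in the sex of their nuclei. Of the nuclei assigned by Xist or Y-linked RNA, 84.3% had Xist in the nKO library (2835 Xist, 527 Y) and 43.5% in the 5xFAD library (1738 Xist, 2259 Y), so both hold animals of both sexes. A further 8.07% and 9.41% of nuclei carried RNA of both. The main differences are therefore given also within Xist nuclei and within Y nuclei.

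Cell classes were rebuilt from clusters and marker lists, and their names mean nuclei that resemble these types. Excitatory neurons were 63.3% of the nKO and 67.9% of the 5xFAD nuclei (2478 and 3369). Among them were 1149 and 1365 dentate granule nuclei, the principal cells of the dentate gyrus, 402 and 561 CA1 and 201 and 215 CA3 pyramidal nuclei, and 253 and 303 deep and 106 and 358 upper cortical nuclei. A cluster of inhibitory nuclei led by Sst and Npy (1272 nuclei over the 5 libraries, 38.3% of the sexed ones with RNA of both sexes) was left out as mixed. Inhibitory neurons made up 8.45% and 9.15%, oligodendrocytes 6.69% and 6.09%, and oligodendrocyte precursors 2.94% and 1.65%. Microglia (50 and 82 nuclei) and astrocytes (28 and 45 nuclei) were few, so their values are the least precise. The label calls the sample brain cells of hippocampus, and cortical markers were present in both libraries. The 8 excitatory markers summed to 1240 and 1221 CPM (UMIs scaled to the same total in every class and library) in excitatory nuclei of nKO and 5xFAD, and the 7 inhibitory markers to 6608 and 7437 CPM in inhibitory nuclei.

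On the CPM scale, Mgll RNA was not lower in any class of nKO neurons beyond counting error. In excitatory nuclei it stood at 96.4 CPM in nKO and 75.0 CPM in 5xFAD, and at 72.9 in wild type, 93.9 in aKO and 82.8 in tKO. The nKO level is the highest of the 5 and the wild type level the lowest. The log2 ratio of nKO over 5xFAD, computed as for all RNA values here on CPM + 5, was 0.34 (95% counting interval 0.29 to 0.40), with 0.32 in Xist nuclei and 0.51 in Y nuclei. In granule nuclei Mgll was 117 against 83.1 CPM (0.47, 0.38 to 0.56), and the levels were alike in both kinds of nuclei, at 118 against 83.2 in Xist nuclei and 118 against 81.1 in Y nuclei. CA1 nuclei gave 61.3 against 43.1 CPM. CA3 (116 against 122), deep cortical (107 against 99.3) and inhibitory nuclei (91.1 against 94.95, log2 -0.06, -0.16 to 0.05) were close. Another scaling, by the median of gene ratios, puts the inhibitory ratio at -0.18 and all CA3 ratios 0.23 lower, so there the statement does not hold for these classes. In glia, which the label does not target, Mgll was 403 against 356 CPM in astrocytes, the class with the highest level, 187 against 132 in oligodendrocyte precursors, 158 against 113 in microglia (24 UMIs in each library) and 41.5 against 25.004 in oligodendrocytes (36 and 24 UMIs). None of these differences passed 1.5-fold on this scale except that of oligodendrocytes (0.63), whose interval ran from -0.05 to 1.31. Since the deleted exons are not given, and nuclear RNA read from a gene outside a deleted part remains, these levels do not check the deletion.

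**Figure D1:**
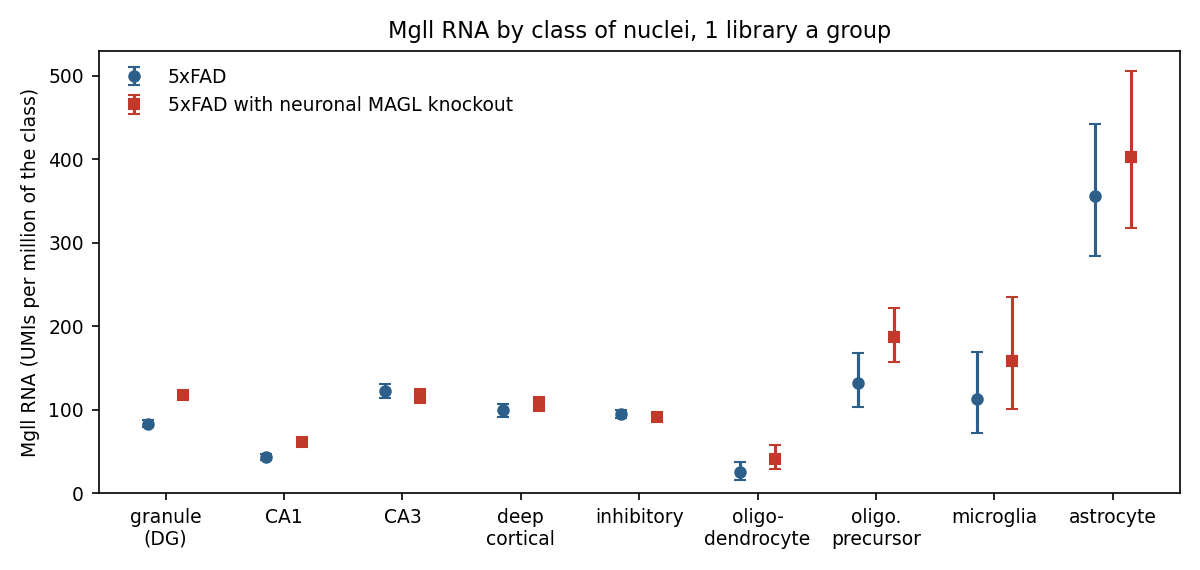
Mgll RNA in CPM of each class (y axis) for 9 classes of nuclei (x axis), 5xFAD as circles and nKO as squares, 1 library each, with bars for 95% Poisson counting intervals. In granule nuclei nKO (117) sits above 5xFAD (83.1) and in inhibitory nuclei the intervals overlap, with no neuronal class below 5xFAD beyond counting error.

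Open chromatin over Mgll was at a like level in both libraries. The gene spans chr6:88724412-88828360 on mm10, and 20 peak regions lay over it. Of these, 13 were listed in both libraries, 4 in nKO only and 3 in 5xFAD only. The promoter region (chr6:88724136-88724996) had 30.0 against 30.5 CPM of cut sites, a log2 ratio of -0.02 on CPM + 1, the scale of all region values. Over the 13 shared regions the ratios ran from -0.31 to 0.15 with a median of -0.10, and none passed 1.5-fold. Of all shared regions measured, 1.51% were higher and 0.359% lower past that fold. Around Mgll, 27 of 43 genes lying at least partly within 1000 kb of the gene were measured in excitatory nuclei, and 0 passed 1.5-fold. Their ratios ran from -0.03 for Rab7 to 0.36 for Podxl2, with a median of 0.13. Of all genes measured in these nuclei, 1.9% were higher and 0.186% lower past that fold.

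The rest of the endocannabinoid pathway was near its 5xFAD level, with small ratios mostly above 0. Dagla, the main neuronal 2-AG synthase, had 98.2 against 80.4 CPM in excitatory nuclei (0.27), 143 against 110 in granule nuclei (0.36) and 58.5 against 44.8 in inhibitory nuclei (0.35). Its relative Daglb had 30.3 against 25.7 CPM in excitatory nuclei. Of the other 2-AG hydrolases, Abhd6 had 84.9 against 83.9 CPM and Abhd12 124 against 106 there. Faah, which degrades the second endocannabinoid anandamide, had 95.6 against 87.6 CPM, and the anandamide-forming enzymes Napepld and Gde1 had 43.2 against 37.5 and 42.6 against 32.4 CPM. Naaa and Abhd4 differed by 0.03 and 0.06 on the log2 scale. Of the 14 synthesis, hydrolysis, anandamide and receptor genes measured in excitatory nuclei, 0 passed 1.5-fold in either direction, where 1.9% of all 17771 measured genes were higher and 0.186% lower past that fold.

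Cnr1, the CB1 receptor, was higher in some pyramidal classes. It had 56.0 against 41.7 CPM over all excitatory nuclei (0.39), 106 against 67.5 in CA3 (0.61) and 48.0 against 27.9 in deep cortical nuclei (0.69), and the last 2 pass 1.5-fold. The other scaling described below puts ratios 0.23 and 0.17 lower in these classes, which takes both under that fold. In inhibitory nuclei, where Cnr1 is highest, it had 350 against 347 CPM (0.01), while the ratio was -0.49 in Xist nuclei and -0.24 in Y nuclei. Cnrip1, a CB1-binding protein, had 113 against 96.2 CPM in excitatory nuclei. Eicosanoid genes, downstream of the arachidonic acid that MAGL frees, had 0 of 19 members past 1.5-fold in excitatory nuclei, with a median of 0.07 and extremes of 0.51 for the prostaglandin receptor Ptger4 and -0.23 for Ptger3. In granule nuclei 1 of 14 passed (where 2.84% of all granule genes were higher), Ptgs2 (cyclooxygenase-2), with 11.7 against 5.23 CPM. It had 6.57 against 5.59 in Y nuclei, and 5.33 against 5.12 without the granule cluster described below. In CA3 2 of 10 were higher (7.94% of all CA3 genes), led by Hpgds, a prostaglandin D synthase (0.91), with a median of 0.44. In upper cortical nuclei 3 of 10 were higher (8.39% of all genes there), with Ptger3 at 1.08. In microglia 2 of 6 were lower (10.7% of all genes there). Ppara, a nuclear receptor for related lipids, had 134 against 65.2 CPM in astrocytes from 25 and 15 UMIs.

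Across all genes, more lay above than below the 5xFAD level in neurons. In excitatory nuclei 338 genes were higher and 33 lower past 1.5-fold. In granule nuclei 411 (2.84%) were higher and 35 (0.242%) lower of 14462, and in inhibitory nuclei 385 (2.6%) and 68 (0.46%) of 14794. Past that fold in the same direction in both Xist and Y nuclei were 186 and 12 genes in excitatory, 136 and 11 in granule and 270 and 49 in inhibitory nuclei. Past the fold in opposite directions in the 2 kinds of nuclei were 1 gene in excitatory, 15 in granule and 146 in inhibitory nuclei. The excess of higher genes moves with the scaling. Size factors from the median of gene ratios put the excitatory ratios 0.21 lower than CPM does, and the split then became 146 higher and 132 lower. In granule nuclei the shift was 0.16 and the split 251 and 109, and in inhibitory nuclei 0.13 with 229 and 103. Ratios below are on the CPM scale, and a value under about 0.2 in excitatory nuclei is within that shift.

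Genes known to change in granule cells with strong activity or seizures were mostly higher in nKO granule nuclei. Of the 16 genes on this list, 12 were higher past 1.5-fold in the nKO library and 0 lower, with a median log2 ratio of 0.73 beside 0.095 over all granule genes. The 12 include Sst and Cck, which were also read in oligodendrocyte nuclei, as given below. With classes drawn from the 2 libraries alone the median was 0.28. The difference lay in Xist nuclei, where the median was 1.00. In Y nuclei it was -0.047. The list was chosen with earlier results of these data known and is described here only.

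Sorcs3, a sorting receptor of the Vps10 family, had the highest ratio, with 482 CPM in nKO against 84.4 in 5xFAD granule nuclei (2.45), and 126 in wild type, 116 in aKO and 194 in tKO. Within Xist nuclei it had 589 against 61.8 CPM and within Y nuclei 59.1 against 99.9, so the direction differs between the kinds of nuclei. How many animals gave each kind is not known, so sex and animal cannot be told apart. In 5xFAD 23 of 1365 granule nuclei held 50% of the Sorcs3 UMIs, and in nKO 81 of 1149. Npy, a neuropeptide that dampens excitation, had 32.2 against 3.22 CPM (2.18, 2.00 to 2.34), from 568 and 64 UMIs, with 5.21, 11.4 and 21.5 in wild type, aKO and tKO. All 3 knockout libraries stood above wild type and 5xFAD. Npy had more CPM in both kinds of nuclei, at 37.4 against 3.49 in Xist and 10.4 against 3.17 in Y nuclei. The Y value is not read as expression, as given below. Penk, the enkephalin precursor, had 42.7 against 6.34 CPM (2.07), and 6.04, 24.4 and 34.8 in wild type, aKO and tKO. It too stood in the order of all 3 knockout libraries above the other 2, at 51.6 against 7.39 CPM in Xist and 10.0 against 5.22 in Y nuclei.

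Nptx2, a secreted pentraxin that gathers AMPA receptors, had 20.3 against 2.62 CPM (1.73), with 3.42, 6.55 and 9.31 in wild type, aKO and tKO. Bdnf, a neurotrophin, had 133 against 77.3 CPM (0.75). It again split by kind of nuclei, with 152 against 72.6 in Xist and 60.2 against 81.4 in Y nuclei. Inhba, the activin A subunit, had 58.2 against 26.3 CPM (1.01) and was higher in Xist (60.4 against 26.3) and in Y nuclei (48.8 against 26.8). The secreted proteins and processing enzymes Vgf (8.62 against 2.87 CPM) and Pcsk1 (11.4 against 5.44) had ratios of 0.79 and 0.65. In Y nuclei Vgf had 2.07 against 2.52. Pcsk1 was at 11.5 CPM in wild type, as high as in nKO, and at 3.20 in aKO and 6.46 in tKO. In Y nuclei it had 2.07 against 6.34. Rgs4, a regulator of G protein signalling, had 7.15 against 2.82 CPM, and 2.77 against 3.17 in Y nuclei. Calb1, a calcium buffer of mature granule cells that is known to be lost from them in seizure models, was the 1 list member below 5xFAD, at 108 against 165 CPM (-0.58), just inside the fold.

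Some of these transcripts are abundant in interneurons, and their free RNA can enter other nuclei. Sst had 36.0 against 13.2 CPM in granule nuclei and 54.1 against 16.7 in oligodendrocytes, and Cck 70.5 against 45.1 and 76.0 against 25.004. In nKO both stood above the granule level in a cell type that should lack them, so the granule values of these 2 members of the list are not read as expression. Npy in oligodendrocytes was 20.7 against 5.21 CPM (18 and 5 UMIs), below the 32.2 of nKO granule nuclei but above the 10.4 of nKO Y granule nuclei, so the Y value is not read as expression. Penk in oligodendrocytes was 9.21 against 1.04 CPM (8 and 1 UMIs), close to the Y granule level and well under the Xist one. In oligodendrocytes Sorcs3 had 109 against 133 CPM, the other direction, and Bdnf 4.61 against 3.13. Microglia markers summed to 60.4 against 42.8 CPM in granule nuclei. The part of free RNA in the granule values was not tested.

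Most of the difference sat in 1 cluster of granule nuclei. It held 281 of 1149 nKO granule nuclei, 271 of them with Xist and 3 with Y RNA, against 24 of 1365 in 5xFAD and 28 of 1626 in wild type. It was also large in the other knockout libraries, with 298 of 1704 nuclei in aKO (285 Xist, 6 Y) and 569 of 2044 in tKO (529 Xist, 11 Y). Without it, a choice made after the clusters were seen, the list median in nKO against 5xFAD was 0.16, and 4 of 16 genes were higher past 1.5-fold. Over all 14105 genes measured in these nuclei the median was 0.099, and 1.96% were higher and 0.184% lower. The 4 were Npy (12.5 against 3.12 CPM), Inhba (43.8 against 24.9), Sst and Cck. Of these, Npy, Sst and Cck stood near or below their nKO level in oligodendrocytes (20.7, 54.1 and 76.0 CPM), so their values here are not read as expression. Sorcs3 then had a ratio of 0.11, Penk 0.32 and Bdnf -0.29. Penk in Xist granule nuclei was 35.6 in aKO and 60.3 in tKO against 4.32 and 5.37 in Y nuclei, and Npy 15.2 and 36.2 against 5.94 and 4.87. The cluster is made from the same RNA, with the list members Penk and Npy among its leading genes. Its size is therefore a description, and the fall of the list median without it follows in part from how it was made. How many Xist animals carry it cannot be told from the libraries.

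**Figure D2:**
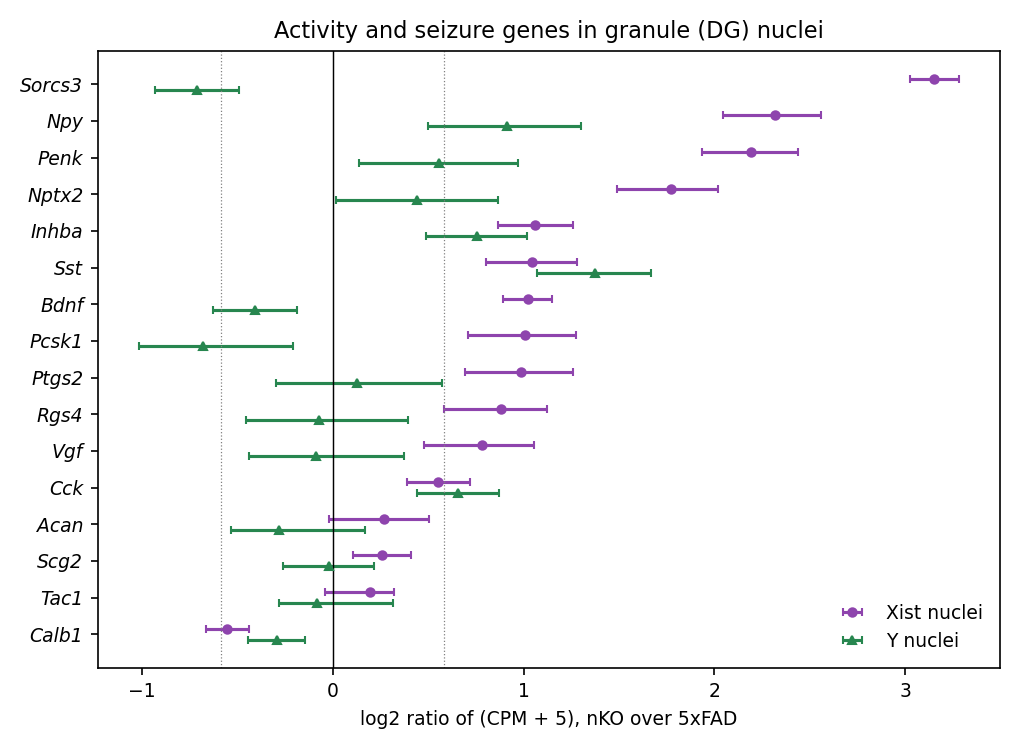
Log2 ratio of (CPM + 5), nKO over 5xFAD (x axis), in granule nuclei for the 16 activity and seizure genes (y axis), circles for Xist nuclei and triangles for Y nuclei, bars for 95% counting intervals and dotted lines at 1.5-fold. Sorcs3 is at 3.15 in Xist and -0.71 in Y nuclei, while Inhba is above 0 in both.

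Outside the dentate gyrus the list was also mostly higher over all nuclei of a class. Its median was 0.84 in CA3 (9 of 14 measured genes higher and 1 lower past 1.5-fold, where 7.94% and 0.589% of all CA3 genes were). It was 0.73 in deep cortical nuclei (8 higher and 1 lower of 14, beside 5.81% and 0.566%), 0.38 in CA1 (6 and 2 of 14, beside 4.47% and 0.316%) and 0.44 in inhibitory nuclei (7 and 0 of 16, beside 2.6% and 0.46%). In Xist nuclei the medians were 1.13 in CA3, 0.71 in deep cortical, 0.44 in CA1 and 0.57 in inhibitory nuclei. In Y nuclei they were 0.43, 0.10, -0.15 and 0.15, so the list was below 0 in CA1 Y nuclei. The highest member was Sorcs3 in CA3 (1.73) and Sst in the other 3, and Pcsk1 was the lowest in all 4. In these classes Sst had 38.6 against 12.3 CPM (CA1), 43.6 against 15.2 (deep cortical) and 113 against 52.2 (inhibitory), beside the 54.1 against 16.7 of oligodendrocytes given above. The CA1 and deep cortical values lie below the oligodendrocyte level and are not read as expression. In the inhibitory class, which lacks the mixed cluster led by Sst and Npy, 14 of 331 nKO nuclei held 50% of the Sst UMIs. The part of free RNA in the list outside the dentate gyrus was not tested. Immediate early genes, the first transcripts of an active neuron, had medians below 0 in the pyramidal classes over all nuclei and near 0.2 in granule nuclei. In excitatory nuclei their median was -0.24, with 0 of 18 higher and 2 lower past 1.5-fold (beside 1.9% and 0.186% of all genes), from Homer1 at -0.81 to Jun at 0.42. CA3 had 1 of 13 higher and 4 lower, with Nr4a2 lowest (-1.21) and a median of 0.07 in Xist and -0.76 in Y nuclei, and deep cortical nuclei 0 of 14 higher and 4 lower, with a median of -0.40. In granule nuclei the median was 0.19 (0.12 in Xist and -0.09 in Y nuclei), and 3 of 14 were higher and 0 lower (beside 2.84% and 0.242%). These were Arc (7.72 against 0.81 CPM), Egr3 (10.2 against 4.38) and Jund (10.7 against 5.44), of which Egr3 and Jund were chosen after their values were seen. Arc, a synaptic plasticity gene, was at 9.62 against 0.81 CPM in Xist nuclei and at 0 against 0.93 in Y nuclei.

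Chromatin at the promoters of 5 of these genes is given for granule nuclei, as far as regions shared by both libraries lay there. At the Npy promoter region (chr6:49822058-49822943) granule nuclei had 8.12 against 4.22 CPM of cut sites (0.80), with 0.93 in Xist and 0.88 in Y nuclei. The Penk promoter region (chr4:4138374-4139237) had 7.79 against 4.63 (0.64), with 0.94 and -0.84. The Sorcs3 promoter region gave 0.33, with 0.96 in Xist and -0.77 in Y nuclei, the same directions as its RNA. The Bdnf promoter region gave 0.38 and that of Inhba 0.08, so 2 of the 5 passed 1.5-fold. An intronic Sorcs3 region chosen after its values were seen (chr19:48258888-48259730) had 9.37 against 2.46 in granule nuclei (1.58), with 2.33 and -0.42. Of all regions in granule nuclei, 5.91% were higher and 3.9% lower past 1.5-fold. Of the 16 list genes, 12 have RefSeq windows in the table, 18 windows in all. Of these, 3 held TGACGTCA, 1 TGANTCA, 3 TGCGTCA and 5 CCAAT, beside 1.55%, 6.75%, 1.75% and 33.8% of all 32851 windows. Bdnf alone has 7 of the 18 windows, and Penk has no window there.

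Spock1, a secreted proteoglycan of the testican family, was far lower in the nKO library than in 5xFAD and the other 3 libraries. In excitatory nuclei it had 98.6 CPM in nKO and 278 in 5xFAD (-1.45, -1.49 to -1.41), with 281 in wild type, 284 in aKO and 312 in tKO. The other 4 libraries lie close together and nKO lies far below them. Y nuclei were the lowest, at 15.1 against 276 CPM, and Xist nuclei had 122 against 286. The step was seen where the gene is most expressed, with 369 against 1066 CPM in CA3 (63.1 against 1057 in Y nuclei), 140 against 388 in deep and 120 against 431 in upper cortical, and 147 against 390 in inhibitory nuclei. CA1 had 30.3 against 66.5 CPM and granule nuclei, where it is scarce, 7.77 against 11.2. It was not confined to neurons. Oligodendrocytes had 223 against 733 CPM from 194 and 704 UMIs, at 288 against 702 in Xist and 22.4 against 680 in Y nuclei, although the label names a neuron-specific knockout.

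**Figure D3:**
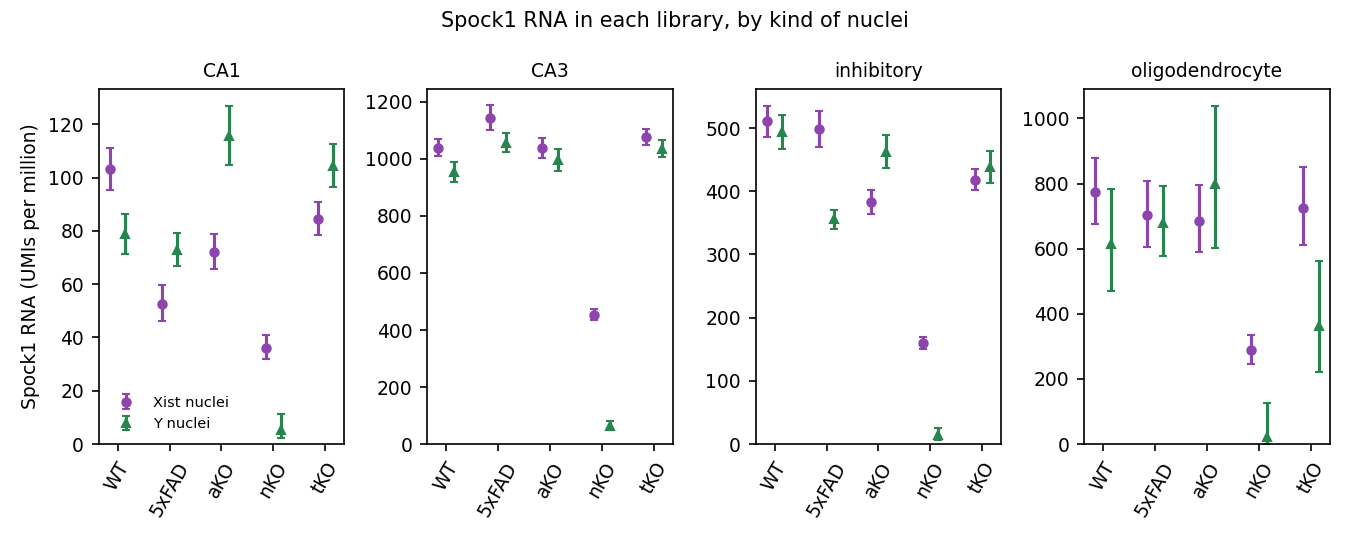
Spock1 RNA in CPM (y axis, from 0, a separate scale in each panel) in CA1, CA3, inhibitory and oligodendrocyte nuclei of the 5 libraries (x axis), circles for Xist and triangles for Y nuclei, bars for 95% Poisson counting intervals. In every panel both kinds of nKO nuclei lie below those of the other libraries, and Y nuclei are the lowest (63.1 in CA3).

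The Spock1 difference was not seen in its measured neighbours. The gene lies at chr13:57421195-57908332 on the minus strand. Of 31 genes lying at least partly within 1000 kb, 17 were measured in excitatory nuclei and 0 passed 1.5-fold. They ran from Ntrk2 (-0.36) to Trpc7 (0.52), with a median of 0.08. Of all genes measured in excitatory nuclei, 1.9% were higher and 0.186% lower past that fold. Of 71 peak regions over the gene, 45 were in both libraries, 12 in nKO only and 14 in 5xFAD only. The 45 had a median ratio of -0.18, and 6 were lower and 0 higher past 1.5-fold, all 6 of them intronic, where 0.359% of all regions were lower and 1.51% higher. The promoter region (chr13:57907895-57908745) had 13.02 against 17.1 CPM of cut sites (-0.37), and 15.1, 14.9 and 15.7 in wild type, aKO and tKO. In oligodendrocytes it had 17 against 52 cut sites, 8.60 against 28.2 CPM of cut sites (-1.61, -2.39 to -0.85).

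**Figure D4:**
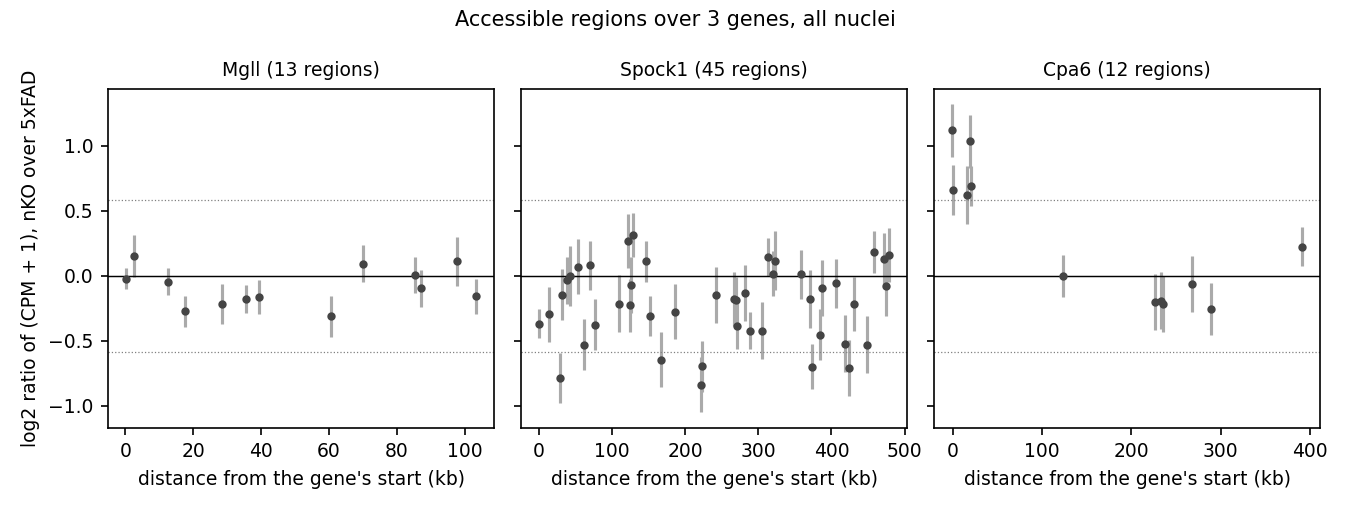
Log2 ratio of (CPM + 1) of cut sites in all nuclei, nKO over 5xFAD (y axis), for each region shared by both libraries against its distance from the gene's start in kb (x axis) over Mgll, Spock1 and Cpa6, bars for 95% counting intervals and dotted lines at 1.5-fold. Mgll regions stay between -0.31 and 0.15, and 6 Spock1 regions lie below the lower line.

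Slc7a11, the light chain of the cystine/glutamate antiporter, had more UMIs in nKO neuronal nuclei than in 5xFAD ones, at low levels. Excitatory nuclei had 8.12 against 1.02 CPM (1.12, from 420 and 69 UMIs), and the other 3 libraries were at or below 0.914. Xist nuclei had 8.02 against 0.494 and Y nuclei 8.35 against 1.29 CPM, and granule nuclei 7.999 against 0.755. The other neuronal classes ran from 5.44 against 0.859 CPM in CA1 to 11.8 against 1.12 in CA3, with 9.004 against 1.79 in inhibitory nuclei, 8.86 against 1.57 in deep and 9.86 against 0.668 in upper cortical nuclei (17 and 4 UMIs). Oligodendrocytes had 5.76 against 1.04 CPM (5 and 1 UMIs) and their precursors 6 and 0 UMIs, a like level, so the neuronal values cannot be told apart from free RNA by level. Astrocytes had 758 against 408 CPM from 141 and 94 UMIs, with 528, 285 and 877 in wild type, aKO and tKO. Slc7a11 is also among the leading genes of a cluster of 48 nonneuronal nuclei left unnamed, which was not compared. Its promoter region had 2.72 against 3.00 CPM of cut sites (-0.10). Of 13 genes lying at least partly within 1000 kb, 5 were measured in excitatory nuclei and 1 passed 1.5-fold upward (1.9% of all genes did). This was the predicted gene Gm6209, chosen after its values were seen, at 17.8 against 2.09 CPM, with 1.49, 1.22 and 1.39 in wild type, aKO and tKO. It lies at chr3:50516399-50607223 on the same strand, beyond the Slc7a11 start, and had 18.4 against 0.577 CPM in Xist and 17.8 against 3.10 in Y nuclei.

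Several of the other leading excitatory genes stood in nKO as in 1 or both of the other knockout libraries. Cfap54, a cilia and flagella gene, had 32.4 against 123 CPM (-1.78), and 138 in wild type, 40.0 in aKO and 44.7 in tKO, and in granule nuclei 20.8 against 127. Dnah6, an axonemal dynein, had 2.28 against 10.7 CPM, and 15.0, 2.07 and 1.39. Homer1, a postsynaptic scaffold, had 304 against 538 CPM (-0.81), and 524, 284 and 400. Mlip, a lamin-interacting protein gene, had 180 against 272 CPM. AC149090.1, which sits on an unplaced contig, had 629 against 240 CPM (1.37), and 292, 650 and 440. Nrg3os, antisense to Nrg3, had 249 against 114 CPM (1.09), and 130, 219 and 127. Dcn, the proteoglycan decorin, had 18.4 against 5.83 CPM, and 12.9, 19.1 and 18.4, and its promoter region 4.10 against 2.30 CPM of cut sites. In granule nuclei Ctnna3, an alpha-catenin, had 124 against 55.9 CPM and the transcription factor Etv1 31.8 against 68.3. Whether counting used strand is not stated in the sources used here, so Nrg3os and Nrg3, and Ctnna3 and Lrrtm3 within it, cannot be told apart with certainty.

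Genes for energy and protein synthesis had small ratios, mostly above 0. In excitatory nuclei all 29 measured oxidative phosphorylation genes had ratios above 0, with a median of 0.29 beside 0.085 over all genes, and 1 was past 1.5-fold (1.9% of all genes), from Ndufv2 (0.02) to Ndufa4 (29.0 against 17.6 CPM, 0.59). All 33 cytosolic ribosomal protein genes had ratios above 0, with a median of 0.39 and 2 past the fold, from Rpl11 (0.23) to Rps27 (19.2 against 9.72 CPM, 0.71). The medians were 0.30 and 0.43 in inhibitory nuclei, where 27 of 29 and 33 of 33 were above 0. With size factors the excitatory medians were 0.13 and 0.24, and the shift of 0.21 is larger than the ratio of Ndufv2, so the count above 0 does not hold on that scale. Microglia markers, an index of free RNA, summed to 61.1 against 40.0 CPM in excitatory and 62.8 against 51.8 CPM in inhibitory nuclei. They were higher in nKO, the direction of both lists, and their part was not tested.

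Synapse lists had medians near 0, with single members past the fold. Glutamatergic genes had a median of 0.02 in excitatory nuclei, with 0 of 29 higher and 2 lower past 1.5-fold (beside 1.9% and 0.186% of all genes), from Homer1 to Grik4 (375 against 264 CPM, 0.50). In CA3 3 of 28 were higher and 1 lower (beside 7.94% and 0.589% of all CA3 genes), with Grm8 at 1.60. In CA1 2 of 29 were higher and 0 lower (beside 4.47% and 0.316% of all CA1 genes), with Grik3 at 1.54. GABAergic genes had a median of 0.06 with 0 of 21 past the fold. Potassium channel genes had a median of -0.01, with 1 of 25 lower, Kcnh5, at 58.0 against 99.7 CPM. Heat shock and chaperone genes had a median of 0.04 and 0 of 20 past the fold, from Hsph1 (30.0 against 45.9 CPM) to Hspa8 (60.8 against 44.6).

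RNA of Thy1, whose promoter drives the 5xFAD transgenes, was higher in nKO neurons. It had 269 against 176 CPM in excitatory nuclei (0.60), and 41.4 in wild type, 210 in aKO and 187 in tKO. All 4 5xFAD libraries were far above wild type, and nKO was the highest. Granule nuclei had 250 against 141 CPM (0.80), at 273 against 175 in Xist and 137 against 115 in Y nuclei. CA3 had 185 against 94.5 and inhibitory nuclei 216 against 124 CPM. App, the mouse counterpart of the APP transgene, had 595 against 534 CPM (0.16). The Thy1 promoter region (chr9:44042860-44043752) had 440 against 353 CPM of cut sites (0.32, with 0.06 in Xist and 0.08 in Y nuclei), and 23.8 in wild type, 441 in aKO and 408 in tKO. A region over a Thy1 exon (chr9:44047273-44047984) had 81.1 against 46.5 (0.79). Over the 3 regions at Thy1 the median ratio was 0.32 in all nuclei, 0.16 in Xist and 0.08 in Y nuclei. The nKO library holds a larger share of Xist nuclei, and the part of this mix in the Thy1 ratios was not tested. Transgene dose in nKO against 5xFAD cannot be told apart from Thy1 itself here, and its part in the other results was not tested.

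In inhibitory nuclei the highest genes by the rule were Cpa6, a carboxypeptidase gene, with 48.4 against 23.3 CPM, and Col23a1, a transmembrane collagen gene, with 42.6 against 20.5. Their ratios were 0.92 and 0.90 over all nuclei, 2.48 and 2.11 in Xist nuclei and 2.40 and 1.60 in Y nuclei. The lowest were Foxp2, a transcription factor, with 31.0 against 94.0 CPM (-1.46), and Spock1. These rest on few nuclei. In nKO, 7 nuclei held 50% of the Cpa6 UMIs and 5 nuclei 50% of those of Foxp2, and Foxp2 was at 0 CPM in the 32 nKO Y nuclei. Over all nuclei, 5 of 12 shared regions over Cpa6 were higher and 0 lower past 1.5-fold, where 1.51% and 0.359% of all regions were. All 5 lay within 20 kb of its start, and the 12 had a median of 0.11 and a lowest ratio of -0.26. Cpa6 also leads a cluster of excitatory nuclei, so these values are not those of inhibitory nuclei alone. The promoter region (chr1:10719645-10720502) had 4.76 against 2.65 CPM of cut sites, and the next (chr1:10720608-10721496) 4.32 against 1.45 (1.12), with 1.56, 2.98 and 3.41 in wild type, aKO and tKO.

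In oligodendrocytes the gene farthest below 5xFAD was Npsr1, the neuropeptide S receptor. It had 0 UMIs in 262 nKO nuclei and 360 UMIs in 302 5xFAD nuclei (375 CPM). Against a floor of 3 UMIs in nKO (3.45 CPM) the level was at least 108-fold lower. It was also at 0 UMIs in aKO and tKO and at 598 CPM in wild type (503 UMIs), so the step separates all 3 knockout libraries from the other 2. In excitatory nuclei Npsr1 had 26.0 against 20.9 CPM, with no such step. Spock1 was again lower (223 against 733 CPM), and Bfsp2, a lens filament gene, had 87.5 against 208 CPM, with 119, 92.7 and 102 in wild type, aKO and tKO. Of 6659 measured genes, 9.31% were higher and 4.23% lower past 1.5-fold.

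Class I antigen presentation genes were higher in nKO oligodendrocytes. B2m, the light chain of these molecules, had 109 against 22.9 CPM (2.03, 1.44 to 2.64, 95 and 22 UMIs), and 4.75, 57.3 and 25.5 in wild type, aKO and tKO. Its ratio was 1.22 in Xist nuclei (0.28 to 2.23) and 2.97 in the few Y nuclei. The heavy chain H2-D1 had 97.9 against 20.8 CPM (1.99, with 1.19 in Xist nuclei and 0.32 in Y nuclei) and H2-K1 42.6 against 15.6, and these family copies share sequence. Of 12 measured disease-associated oligodendrocyte genes, 6 were higher and 1 lower past 1.5-fold, beside 9.31% and 4.23% of all genes of the class. Their median was 0.52 beside 0.042 over all genes. The highest of the 12 was B2m, so this list overlaps the class I genes given above. Also among the 12, the protease Klk6 had 61.0 against 12.5 CPM, the protease inhibitor Serpina3n 43.8 against 10.4 and complement C4b 242 against 143. The kinase Sgk1 was lower at 23.0 against 45.8. Il33 (420 against 367 CPM) and Apoe (701 against 740) were near their 5xFAD levels. Lrrtm3, a synaptic adhesion gene that lies within Ctnna3 on the other strand, had 252 against 104 CPM.

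Myelin genes were nearly level, with a median of 0.13 over 20. Past 1.5-fold 0 were higher and 1 lower, beside 9.31% and 4.23% of all genes of the class. They ran from Cryab (-0.59) to Gjb1 (0.58), with Mbp, the main myelin protein, at 5303 against 4750 CPM. Cholesterol synthesis genes, which supply myelin lipid, had a median of 0.06 over 12, with Cyp51 lowest (-0.46). Past 1.5-fold 1 of the 12 was higher, Dhcr7 (1.18), where 9.31% of all genes of the class were. In oligodendrocyte precursors AC149090.1 had 342 against 127 CPM and Zswim5 183 against 360.

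In microglia, class II and class I genes were higher in the library as a whole. Of 8 measured antigen presentation genes 6 passed 1.5-fold upward, where 8.31% of all 2721 measured genes were higher and 10.7% lower, and the median was 1.00 beside -0.021. Cd74, the class II invariant chain, had 658 against 269 CPM from 100 and 57 UMIs, H2-Ab1 277 against 113, H2-Aa 165 against 75.5, H2-D1 816 against 425 and the chaperone Canx 560 against 264. B2m had 974 against 731 CPM (0.41). The signal is uneven among the 50 nuclei, with 2 of them holding 50% of the 100 Cd74 UMIs and 1 of these holding 34. For H2-Ab1 (42 UMIs) and H2-Aa (25 UMIs) 2 nuclei also held 50%, so the class II values rest on few nuclei. A cluster in this class had mean marker scores of 2.18 for microglia and 1.82 for perivascular macrophages. Such macrophages were not set apart from microglia. The median was 0.73 in Xist nuclei and -1.29 in Y nuclei, of which nKO had 3. Microglia markers summed to 15057 against 14136 CPM in these nuclei.

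Disease-associated microglia genes had a median of 0.14 over 22, with 4 higher and 1 lower past 1.5-fold (beside 8.31% and 10.7% of all microglia genes). The median was 0.41 in Xist nuclei and -0.61 in Y nuclei, of which nKO had 3. Apoe had 7801 against 7200 CPM, Trem2, a lipid-sensing receptor, 1304 against 981, Fth1, a ferritin chain, a ratio of 0.78, the lipase Lpl 0.72 and Cd83 -0.78. Homeostatic genes had a median of 0.01 with 0 of 15 past the fold, and interferon genes 0.05 with 0 of 6. Among the leading genes outside these lists, Arsb, a lysosomal sulfatase, had 435 against 1000 CPM, with 1545 in wild type and 496 and 478 in aKO and tKO. Wapl, a cohesin release factor, had 184 against 420 CPM. Ctnna3 had 843 against 396 CPM, with 2 nKO nuclei holding 50% of its UMIs.

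In astrocytes the sums of the markers were 12568 and 12758 CPM, and 11.1% of 2678 measured genes were higher and 11.5% lower past 1.5-fold. Ptgds, a prostaglandin D synthase, had 967 against 39.1 CPM, but 1 nucleus held 153 of its 180 UMIs. St6galnac5, a sialyltransferase, had 188 against 504 CPM. Disease-associated astrocyte genes had a median of 0.24 with 2 of 8 past the fold, the highest being the protease Ctsb (0.69). Homeostatic astrocyte genes had a median of -0.02 over 17, from Luzp2 (-0.38) to Trpm3, a cation channel, at 4422 against 2455 CPM (0.85).

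**Figure D5:**
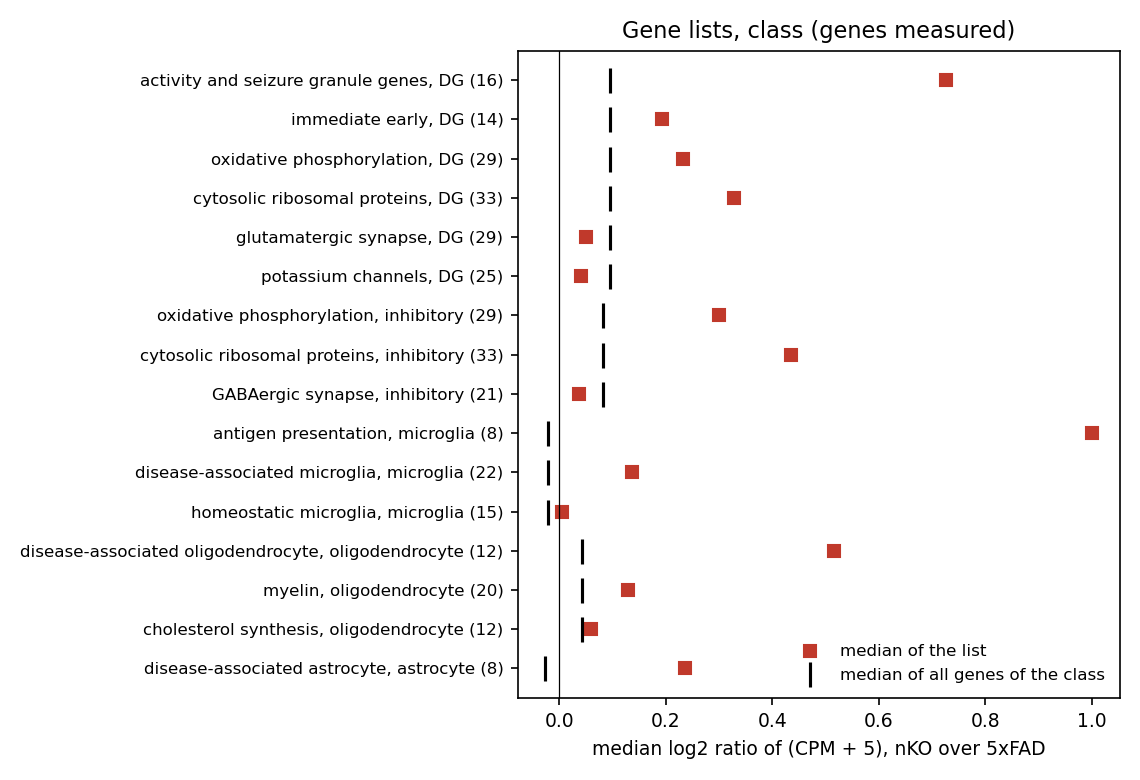
Median log2 ratio of (CPM + 5), nKO over 5xFAD (x axis), of 16 pairs of a gene list and a class (y axis, with the number of genes measured), squares for the list and bars for all genes of the class. Among the pairs drawn, activity and seizure genes in granule nuclei (0.73), antigen presentation in microglia (1.00) and disease-associated genes in oligodendrocytes (0.52) stand farthest from the class medians.

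Peaks had been called in each library, 177062 in nKO and 170190 in 5xFAD, and were merged here into regions. Of these regions 148986 (75.3%) were listed in both, 27783 (14.1%, covering 23094 kb) in nKO only and 20969 (10.6%, 17296 kb) in 5xFAD only. Regions listed once were weak, with means of 1.81 and 1.78 CPM of cut sites against 6.37 and 6.46 for shared regions. Cut sites were counted over each library's own peaks, so a shared region can cover different bases in the 2 libraries. Over all shared regions the peaks covered 129304 kb in nKO and 129066 kb in 5xFAD, and ratios were not corrected for covered width. Of 148985 shared regions measured, 2253 (1.51%) were higher and 535 (0.359%) lower past 1.5-fold. Within Xist nuclei 3.86% and 1.82% passed, from 55566782 nKO and 22813392 5xFAD cut sites. Within Y nuclei 4.08% and 6.16% passed, from 8941864 and 33470051 cut sites. The larger share was thus the lower one in Y nuclei, where nKO was also the shallower side. The part of depth in this was not tested. In excitatory nuclei the shares were 2.01% and 0.967%, in inhibitory 9.26% and 6.68%, and in oligodendrocytes 6.3% and 6.34%.

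Most regions that differed lay outside promoters. Promoters took 61 of 2205 autosomal higher regions (2.77%) and 26 of 524 lower ones (4.96%), against 14220 of 146046 measured (9.74%). Intergenic regions took 48.0% of the higher, 38.4% of the lower and 36.8% of the measured. These shares were not tested.

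The single regions below were chosen to have the same sign in Xist and in Y nuclei and were ranked by the smaller ratio. That both kinds of nuclei differ there is part of the choice and not a result. The highest by the rule were an intergenic region (chr4:89875454-89876851, nearest start Dmrta1) with 3.25 against 0.493 CPM of cut sites (1.51), the promoter of 4930481A15Rik (chr19:5406299-5407100) with 12.2 against 2.99 (1.72), and an intergenic region at chr5:64030226-64031015 with 5.205 against 1.39 (1.38). The first of them spans 1398 bases, of which nKO peaks covered 856 and 5xFAD peaks 712. The 4930481A15Rik promoter was as open in the other knockouts, at 12.4 in aKO and 13.04 in tKO against 4.24 in wild type. The lowest were an intergenic region nearest the start of Ezh2 (chr6:47650551-47651445) with 37.4 against 111 (-1.54), one nearest that of Abt1 (chr13:23400420-23401272) with 1.44 against 5.32 (-1.37), and an intron of Sv2c, a synaptic vesicle gene (chr13:96023611-96024537), with 1.37 against 4.12 (-1.11). In nKO Y nuclei the Abt1-side and Sv2c regions had only 6 and 2 cut sites. The Ezh2-side region had 112 in wild type and 40.4 and 39.0 in aKO and tKO. It separated the 3 knockout libraries from the other 2, as Npsr1 and Cfap54 did.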

How the data were processed

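Nuclear RNA and open chromatin of 5 hippocampal libraries had been counted with Cell Ranger ARC 2.0.0 on mm10, and Seurat is named without a version, per the submitters' processing notes. The deposited values are raw counts of UMIs per gene and of cut sites per peak, per the file headers, with peaks called in each library. Nuclei needed at least 500 detected genes and no more than 5% of UMIs from mitochondria (Python 3.11.15, scanpy 1.11.5, numpy 2.4.6, scipy 1.17.1, scikit-learn 1.9.0, matplotlib 3.10.9). Scrublet's automatic threshold marked 0 nKO and 2 5xFAD nuclei, so its highest scores were removed at an expected rate of 0.8% per 1000 nuclei (131 and 214). Nuclei were clustered over all 5 libraries (2000 variable genes, 40 components, resolution 1) and named from marker lists. Clusters with at least 25% nuclei of both sexes, a limit set after the data were seen, were left out as mixed (14.1% of nKO and 10.9% of 5xFAD nuclei), and 1.02% and 0.97% stayed unnamed. A nucleus was assigned a sex from at least 3 UMIs of Xist and Y-linked genes.

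Counts were summed per class and library, scaled to CPM, and compared as log2 ratios of CPM + 5 for genes (at least 30 UMIs over both libraries) and CPM + 1 for regions listed in both (at least 50 cut sites). A value is called past 1.5-fold. Intervals are 95% exact Poisson for levels and exact conditional binomial for ratios, and cover counting error only. A promoter is 1000 bases before to 100 after a start. To be named, a gene needed 100 UMIs in nKO and 5xFAD together and a level in the class no less than 0.5 times its level over all nuclei. In neurons they had the same sign in both sexes and were ranked by the smaller ratio, and in glia by the interval bound nearest 0. List extremes and all endocannabinoid genes were also named, and other list members were chosen after their values were seen. Mitochondrial and Y-linked genes, Xist, Tsix, and models named Gm with a number or ending in Rik were not ranked. Members and lists were chosen with earlier results of these data known. Scaling, pseudocounts, filters, sexes, doublets and class definitions were varied, and 2 alternatives (equal weight to excitatory subclasses, and granule nuclei without 1 cluster) were added after the data were seen. The ratio scripts were tested on simulated data.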

Additional observations from a re-analysis of the deposited data

Results flagged for a closer look

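Some genes differed between nKO and 5xFAD in opposite directions in Xist and in Y nuclei. Of 688 pairs of a gene and a class, 50 had opposite signs with both counting intervals excluding 0, and in 12 of these both log2 ratios were at least 0.4 in size. The difference between the kinds of nuclei was not tested, since each is 1 library a side. The Xist value is given first and the Y value after it. In granule nuclei Sorcs3 had 3.15 and -0.71, Bdnf at 1.02 and -0.41, Pcsk1 at 1.01 and -0.68, the potassium channel gene Kcnc2 at 0.97 and -0.51, and the chaperone gene Hsph1 at 0.42 and -1.12. Over all excitatory nuclei Bdnf stood at 0.54 and -0.44. In inhibitory nuclei the glutamate receptor gene Grm8 stood at 1.11 and -0.62, the GABA receptor gene Gabrg1 at 1.69 and -0.65, Kcnc1 at -0.41 and 0.40, Kcnc2 at -0.55 and 0.55, and the ribosomal gene Rpl3 at 0.47 and -0.86. In astrocytes Trpm3 stood at 1.13 and -0.47. The nKO library held 183 granule, 32 inhibitory and 5 astrocyte nuclei with Y RNA, so these values rest on few nuclei there.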

How the results depend on the processing

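No paired analysis was possible because nKO and 5xFAD are 1 library each, and for the same reason no replicate could be left out. The excitatory Mgll log2 ratio (0.34) was 0.15 with size factors, 0.51 in Y nuclei, 0.45 with classes from marker scores, 0.54 in nuclei thinned to 1000 UMIs, 0.43 as a mean over nuclei and 0.18 with equal weight to subclasses. That of granule nuclei (0.47) was 0.32 with size factors and 0.68 thinned, and that of inhibitory nuclei (-0.06) was -0.18 and 0.14. Mgll in oligodendrocytes turned to -1.49 in Y nuclei and -0.13 with marker scores. In microglia Cd74 and Ctnna3 were at 0 CPM in the 3 nKO Y nuclei, which gave ratios of -6.22 and -5.96. Their counting intervals reach up to 0.09 and 0.39, so no change of direction is read from them. Genes higher past 1.5-fold in excitatory nuclei (338) numbered 146 with size factors, 1277 with a pseudocount of 1 CPM and 867 thinned, and those lower (33) 132, 114, 125 and, in Xist nuclei, 63. In granule nuclei those higher (411) numbered 251, 1472 and 1619, and those lower (35) 109, 132 and 422, with 74 in Xist and 93 in Y nuclei. The median of the activity genes in granule nuclei (0.73) was 1.06 with the pseudocount of 1, 1.00 in Xist and -0.047 in Y nuclei, 0.28 with classes from the 2 libraries alone and 0.16 without the cluster described. Oxidative phosphorylation (0.29) had 0.13 with size factors, and ribosomal genes (0.39) had 0.24 with size factors and 0.52 with the pseudocount of 1. Antigen presentation in microglia (1.00) had -1.29 in Y nuclei. The excitatory share of nKO nuclei (63.3%) was 65.5% with at least 1000 genes, 61.3% without doublet removal, 73.2% without nuclei of both sexes, 32.4% with marker scores and 60.1% with classes from the 2 libraries alone, and that of 5xFAD (67.9%) was 69.5%, 62.9%, 76.0%, 30.2% and 70.8%. The precursor shares were 4.88% and 3.59% with marker scores. Regions higher (2253) numbered 4774 with a pseudocount of 0.25 CPM, 5747 in Xist and 6293 in Y nuclei, and those lower (535) 1928, 2719, 9344 and, in excitatory nuclei, 1432. Peaks listed once (27783 and 20969) numbered 2661 and 1874 at or above the median level of their library. The causes were not tested. Among the checks of the main results, 127 stayed the same, 53 moved and 2 changed sign. Among the checks of the other results, 462 stayed the same, 202 moved and 4 changed sign. These 4 are the Mgll values in oligodendrocytes and the Cd74 and Ctnna3 values in microglia given above. A ratio or a share was the same if it stayed within its counting interval. A list median was the same within the medians of its members' bounds, and a count within 1.5-fold of its main value.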
